A study of Arabidopsis thaliana with 24 samples.

Results

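Germinating Arabidopsis seedlings live on the oil stored in the seed until they can photosynthesise, and the 10 genes described here encode successive steps of that route. They are the triacylglycerol lipase gene SDP1 (AT5G04040), the peroxisomal importer gene PXA1 (AT4G39850), the acyl-CoA synthetase genes LACS6 (AT3G05970) and LACS7 (AT5G27600), the beta-oxidation genes ACX1 (AT4G16760), MFP2 (AT3G06860) and KAT2 (AT2G33150), the glyoxylate cycle genes ICL (AT3G21720) and MLS (AT5G03860), and PCK1 (AT4G37870), the first committed step of gluconeogenesis. The 10 genes were chosen by locus from the 32833 loci of the count tables, for their known roles and with earlier results of these data known. Each was above the filter on low counts in every comparison, so all 10 were tested throughout.

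The study asked how a polyunsaturated N-acylethanolamine changes the transcriptome and whether the G protein beta subunit AGB1 matters for that change. Whole seedlings of the Col-0 accession, 4 days old, were exposed to 40 µM NAE 18:3 (an ethanolamide of an acyl chain with 18 carbons and 3 double bonds) or to 0.2% DMSO, for 1 h or 3 h. Wild type (WT) and agb1 seedlings received each treatment, which gives 8 groups of 3 libraries. All 8 groups had grown in shaken liquid Murashige and Skoog medium with 1% sucrose and were treated in a dish, where no sucrose is listed. Each library comes from a pool of whole seedlings (groups of 515 per the labels' protocols), so roots, hypocotyls and cotyledons were measured together. In such bulk samples fewer cells that express a gene and less RNA per cell cannot be told apart. The allele of agb1 is not named in the labels. The labels do not say whether replicates are separate cultures, so p-values measure only the spread between these samples.

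The route runs through several compartments. SDP1 releases fatty acids from oil bodies, PXA1 carries them into the peroxisome, and LACS6 and LACS7 attach coenzyme A. The acyl-CoA oxidase ACX1 (the long- to medium-chain isoform), the multifunctional protein MFP2 (hydratase and dehydrogenase) and the thiolase KAT2 then shorten the chain and release acetyl-CoA. Isocitrate lyase (ICL) and malate synthase (MLS) belong to the glyoxylate cycle, which turns acetyl-CoA into dicarboxylic acids, and phosphoenolpyruvate carboxykinase (PCK1) sends these towards sugar. In Arabidopsis ICL and MLS are textbook markers of early seedling growth, while several beta-oxidation genes stay in use later and also serve jasmonate and auxin formation.

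The counts per library summed to 18001981 to 61937044 at 1 h and 19954891 to 51894994 at 3 h, of which the 10 genes took 0.152% to 0.321%. Levels are given in CPM, the count divided by the library size after trimmed-mean scaling over all 24 libraries, and fold changes come from edgeR's quasi-likelihood test with Benjamini-Hochberg adjustment over all loci; a gene is said to have risen or fallen where its adjusted p was under 0.05. The wild-type DMSO 1 h library of replicate 2 stood apart from its 2 group mates. The chi-square per degree of freedom between it and them was 174 and 159, against 21.9 between the other two. The agb1 DMSO 3 h libraries, the controls of the agb1 response at 3 h, also differed from each other, at 45.7 to 80.9, against 6.03 to 27.2 in the 6 remaining groups. The AGB1 transcript, the targeted gene, was present in the agb1 libraries, at 38.8 to 50.1 CPM at 1 h and 24.2 to 40.4 CPM at 3 h, against 46.4 to 58.5 and 49.7 to 120.1 CPM in wild type. At 1 h the genotypes overlapped under DMSO (38.8 to 47.2 CPM in agb1 and 46.4 to 51.1 in wild type) and not under NAE 18:3 (39.2 to 50.1 and 54.8 to 58.5 CPM), and at 3 h they did not overlap in either treatment. Seed storage markers, which mark the seed stage, were close to nothing: the summed level of 10 of them was 0.471 to 2.94 CPM in every library. Markers of green tissue and of root were present in every library (5 each, with summed levels of 10740 to 22290 CPM and of 51.3 to 108 CPM).

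The promoter windows of 4 genes are shown because MLS and PCK1 were higher in agb1 at 1 h, ICL lay above wild type there without overlap, and ACX1 had the greatest NAE 18:3 response of the 10. Each window is the 250 bases before the annotated gene start, on the gene's own strand, read from the RefSeq annotation of TAIR10.1 by locus. The submitters' processing notes name TAIR10. None of the 4 windows overlaps another annotated gene. Capitals mark ACGTG or its reverse complement CACGT (together, CACGTG), the core of the elements that bZIP and bHLH factors bind.
MLS, chr5:1034974-1035223, minus strand: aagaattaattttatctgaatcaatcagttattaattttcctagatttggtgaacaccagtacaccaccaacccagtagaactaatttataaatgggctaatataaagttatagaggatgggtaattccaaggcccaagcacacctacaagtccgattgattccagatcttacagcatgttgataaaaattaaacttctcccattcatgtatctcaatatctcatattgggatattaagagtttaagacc
ICL, chr3:7656054-7656303, minus strand: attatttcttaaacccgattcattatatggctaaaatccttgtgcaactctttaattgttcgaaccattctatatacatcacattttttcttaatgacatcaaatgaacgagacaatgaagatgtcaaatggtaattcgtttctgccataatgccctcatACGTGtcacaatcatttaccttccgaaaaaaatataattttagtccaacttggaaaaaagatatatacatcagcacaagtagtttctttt
PCK1, chr4:17806706-17806955, minus strand: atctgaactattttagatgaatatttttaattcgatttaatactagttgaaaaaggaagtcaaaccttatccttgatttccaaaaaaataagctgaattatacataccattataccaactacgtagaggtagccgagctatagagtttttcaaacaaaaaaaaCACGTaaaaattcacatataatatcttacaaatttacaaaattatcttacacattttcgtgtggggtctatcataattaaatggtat
ACX1, chr4:9428896-9429145, minus strand: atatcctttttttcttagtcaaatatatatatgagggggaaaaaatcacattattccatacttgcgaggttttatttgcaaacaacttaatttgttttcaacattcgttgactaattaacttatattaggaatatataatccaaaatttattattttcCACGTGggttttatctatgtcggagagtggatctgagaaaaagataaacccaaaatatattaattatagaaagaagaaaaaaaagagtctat
ACGTG lay 90 bases before the start of ICL and 87 bases before that of PCK1, and ACX1 had the palindrome CACGTG (the G-box, which contains ACGTG) 92 bases before its start. MLS had no ACGTG in its window. Over 27438 promoters of the same length, searched on both strands, ACGTG was in 22.9% and CACGTG in 6.5%. Of the 10 genes, 3 held ACGTG and 1 held CACGTG. The W-box core TTGAC was in 4 of the 10 and in 44.9% of all promoters, TATCCA was in 2 of the 10 and in 13.6%, and GACGTC (2.3% of all promoters) and GAANNTTC (9.6%) were in none of the 10. A match describes these letters only.

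The 10 transcripts spanned a wide range of levels. Per kilobase of annotated exon and averaged over the 24 libraries, PCK1 stood at 330.3 CPM per kb, KAT2 at 186, ACX1 at 132 and MFP2 at 51.7 CPM per kb. LACS6 (39.6), ICL (33.1), LACS7 (29.4), PXA1 (15.4), SDP1 (12.4) and MLS (9.86 CPM per kb) followed. MLS was thus the lowest per length and PCK1 the highest. MLS had the fewest counts, 110 to 2973 per library. Across libraries MLS and ICL varied most, with a highest level 19.0 and 13.7 times the lowest, while the other 8 genes varied 1.83- to 3.76-fold. No 75-base stretch of any of the 10 was shared with another locus, and no annotated gene overlapped one of them on the opposite strand.

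**Figure D1:**
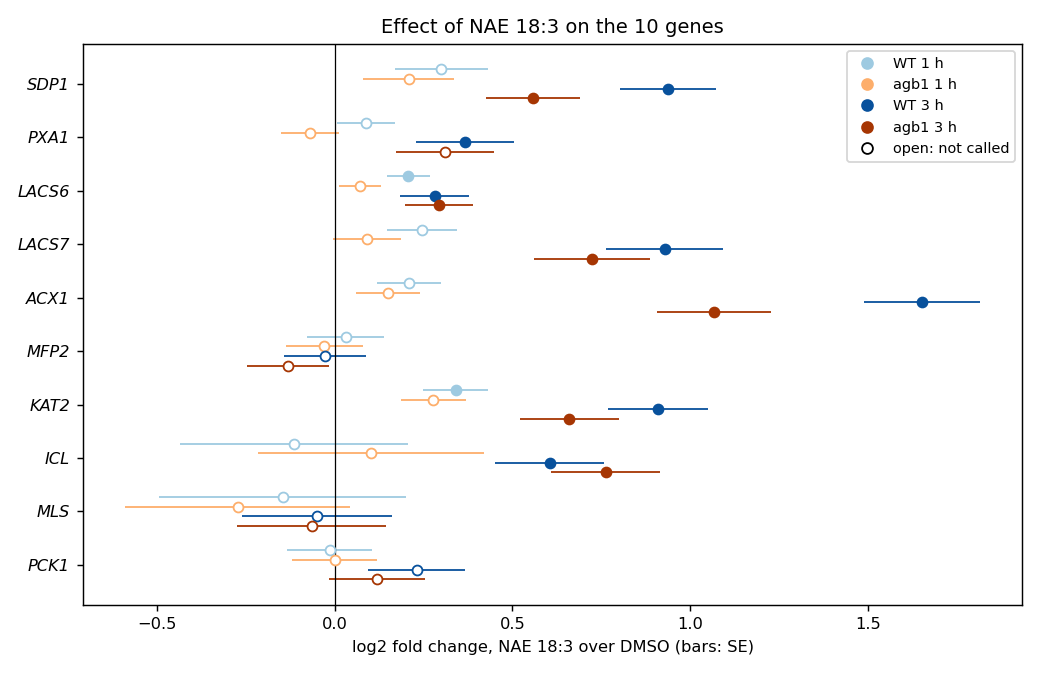
Log2 fold change of NAE 18:3 over DMSO for the 10 genes, in wild type and agb1 at 1 h and 3 h, with bars for the standard error; filled points passed an adjusted p of 0.05. The 3 h points of ACX1, SDP1, LACS7, KAT2 and ICL lie well to the right of 0 in both genotypes, and those of MLS and MFP2 lie near 0.

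After NAE 18:3 for 1 h the log2 fold changes of the 10 genes were small, at most 0.34 in wild type. Their called share in wild type was near that of all loci. In wild type 2 of the 10 genes rose, KAT2 and LACS6, and none fell; over all 21255 loci tested 20.5% were called and 12.4% were called higher. KAT2, the main peroxisomal thiolase of seedlings, was at 279, 278 and 285 CPM under DMSO and at 379, 363 and 331 CPM under NAE 18:3. The groups did not overlap, and the log2 fold change was 0.34 (SE 0.09, edgeR adjusted p = 0.0163). LACS6 was at 74, 74.2 and 74.5 CPM under DMSO and at 85.9, 89.7 and 83.2 CPM under NAE 18:3, again without overlap (log2 0.21, SE 0.06, edgeR adjusted p = 0.0239). Both calls depended on single libraries. KAT2 was not called without the wild-type DMSO replicate 2 or without the NAE 18:3 replicate 1 or 2 (edgeR adjusted p = 0.0508 to 0.0593). LACS6 was not called without the DMSO replicate 1 or 2 or the NAE 18:3 replicate 2 (0.0577 to 0.112), and neither was called in the fit of all 24 libraries. Upper-quartile scaling and the fit of only the 6 libraries compared also ended the LACS6 call.

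SDP1, LACS7 and ACX1 had positive values in wild type at 1 h that did not pass (log2 0.30, 0.25 and 0.21, with edgeR adjusted p of 0.12, 0.0893 and 0.114). SDP1 was called in the fit of only the 6 libraries (adjusted p = 0.048). Without the wild-type NAE 18:3 replicate 3, LACS7 (0.36, adjusted p = 0.013) and ACX1 (0.29, adjusted p = 0.0461) were called. PXA1, MFP2, PCK1, ICL and MLS lay between 0.09 and -0.15. In wild type at 1 h 5 of the 10 genes had an unadjusted edgeR p under 0.05. In agb1 none of the 10 genes was called at 1 h by edgeR, against 13.8% of all loci, while 1 of 10 had an unadjusted p under 0.05. KAT2 had the highest log2 fold change of the 10 there, with levels of 333, 397 and 324 CPM under DMSO and 439, 454 and 386 CPM under NAE 18:3 (log2 0.28, SE 0.09, edgeR adjusted p = 0.0578). DESeq2 called KAT2, as did edgeR with the replicate number as a block, with an exon length correction (each library's trend of counts with exon length taken out) and without the agb1 DMSO replicate 2, the agb1 NAE 18:3 replicate 3 or the wild-type NAE 18:3 replicate 3 (adjusted p = 0.0117 to 0.0488). The 1 h response did not differ detectably between genotypes for any of the 10: edgeR and DESeq2 called 0, with 0 at an unadjusted p under 0.05, and 0.0753% of all loci were called by edgeR.

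After 3 h in wild type, 7 of the 10 genes rose and none fell. Over all 20672 loci tested, 58.5% were called and 29.4% were called higher; the median log2 fold change was 0.49 over the 10 genes and -0.003 over all loci. The 7 are all of the 10 genes from SDP1 to ICL along the route apart from MFP2. Among them, the calls of PXA1 and LACS6 depended on single libraries. PCK1, MFP2 and MLS did not pass, with log2 values of 0.23, -0.03 and -0.05; PCK1 passed with the exon length correction (0.35, adjusted p = 0.0387).

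ACX1 rose most. It was at 190.2, 197 and 252 CPM under DMSO and at 715, 709 and 635 CPM under NAE 18:3 in wild type at 3 h. Each NAE 18:3 library was thus far above any DMSO library, a 3.14-fold rise (log2 1.65, SE 0.16, edgeR adjusted p = 1.21e-06). In agb1 ACX1 went from 252, 193 and 318 CPM to 582, 519 and 542 CPM, also without overlap (log2 1.07, SE 0.16, adjusted p = 8.6e-05). The 3 agb1 NAE 18:3 libraries lay below all 3 wild-type ones.

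**Figure D2:**
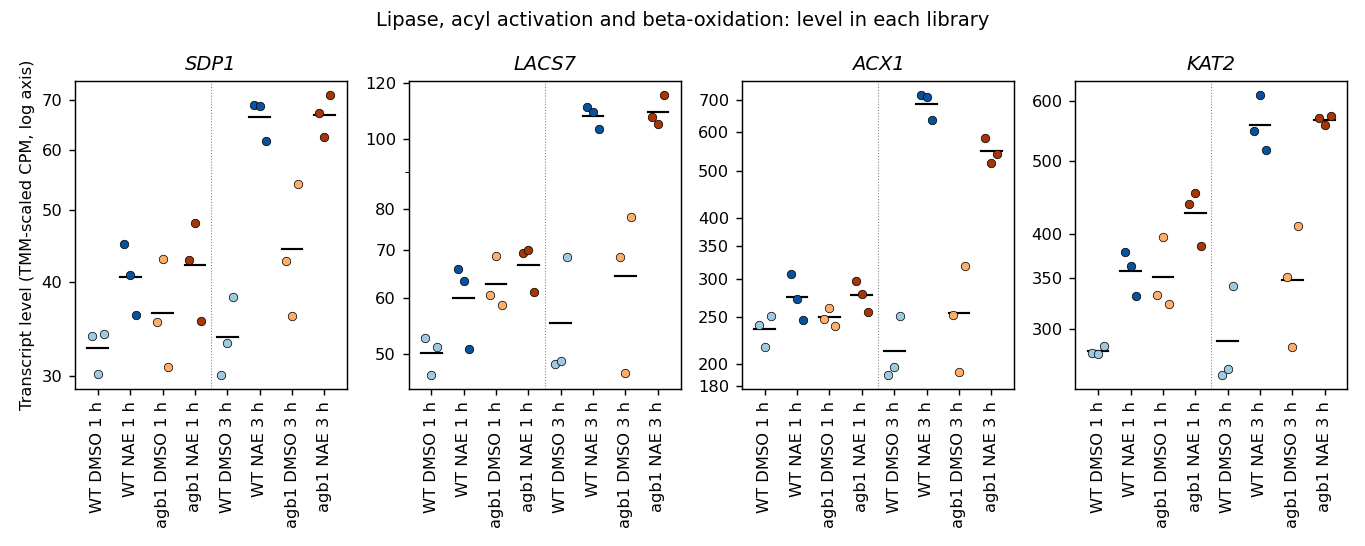
Levels of SDP1, LACS7, ACX1 and KAT2 in each of the 24 libraries, in CPM on a log axis, by group; each point is a library and each bar a group mean of 3. In all 4 genes the 3 h NAE 18:3 libraries of both genotypes lie above every DMSO library of the same genotype and time. The share of all loci without overlap at 3 h is not given here. Of all loci, 58.5% were called at 3 h in wild type and 50.5% in agb1.

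The lipase SDP1, which starts the breakdown of stored oil, rose in both genotypes at 3 h. In wild type it went from 30.1, 33.2 and 38.3 CPM to 69.0, 68.8 and 61.8 CPM (log2 0.94, SE 0.14, edgeR adjusted p = 4.43e-05). In agb1 it went from 42.7, 36.1 and 54.1 CPM to 67.3, 62.6 and 71.1 CPM (log2 0.56, SE 0.13, adjusted p = 0.00315). The NAE 18:3 levels of the 2 genotypes overlapped, and the groups did not overlap with their DMSO controls.

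LACS7, the peroxisomal synthetase with both types of peroxisomal import signal, rose in both genotypes too. It was at 48.4, 48.9 and 68.5 CPM in wild-type DMSO and at 111, 109 and 103 CPM after NAE 18:3 (log2 0.93, SE 0.17, edgeR adjusted p = 0.000279). In agb1 it was at 68.5, 47.0 and 77.9 CPM and then at 107, 105 and 115 CPM (log2 0.72, SE 0.16, adjusted p = 0.00224). Its partner LACS6 rose less, from 93.9, 91.7 and 96.5 CPM to 131, 114 and 107 CPM in wild type (log2 0.28, SE 0.10, adjusted p = 0.0223) and by a log2 of 0.29 in agb1 (SE 0.10, adjusted p = 0.0209). The LACS6 groups did not overlap, but the calls were lost without single libraries. In wild type these were DMSO replicate 1 or 2, NAE 18:3 replicate 1 and agb1 DMSO replicate 1 (adjusted p = 0.0512 to 0.141), and in agb1 DMSO replicate 2 and NAE 18:3 replicate 3 (0.0592 to 0.0927). Upper-quartile scaling also ended both LACS6 calls, and the fit of only the 6 libraries compared that in wild type.

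KAT2 rose in both genotypes at 3 h. Its wild-type levels were 261, 266 and 342 CPM under DMSO and 548, 610.2 and 516 CPM under NAE 18:3 (log2 0.91, SE 0.14, edgeR adjusted p = 8.19e-05). In agb1 they were 351, 284 and 410.0 CPM and then 569, 558 and 572 CPM (log2 0.66, SE 0.14, adjusted p = 0.0014). Neither pair of groups overlapped. MFP2, which acts between ACX1 and KAT2 in the same spiral, was at 100.5 to 129 CPM in every wild-type 3 h library, with log2 values of -0.03 in wild type and -0.13 in agb1 (SE 0.12 and 0.11).

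PXA1, the ABC transporter that brings fatty acids into the peroxisome, gave a smaller value. In wild type it was at 59.9, 76.6 and 76.0 CPM under DMSO and at 107, 99.9 and 74.1 CPM under NAE 18:3. These groups overlapped, since the third NAE 18:3 library lay within the DMSO range (log2 0.37, SE 0.14, edgeR adjusted p = 0.035). Its call was lost without any of 7 single libraries, namely wild-type DMSO replicates 1 and 2, wild-type NAE 18:3 replicates 1 and 2 and each agb1 DMSO replicate (adjusted p = 0.0525 to 0.24). It was also lost under upper-quartile scaling (0.168), with the replicate block (0.0539) and in the fit of only the 6 libraries compared (0.0832). In agb1 PXA1 was at 77.3, 80.2 and 92.2 CPM and then at 109.7, 101 and 107 CPM without overlap, yet it did not pass (log2 0.31, SE 0.14, adjusted p = 0.0745); it passed without the wild-type NAE 18:3 replicate 3 (0.0234) or the agb1 DMSO replicate 3 (0.0358), in the fits of all 24 and of only the 6 libraries compared (0.0244 and 0.0273) and with a correction for exon length (0.00276).

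ICL, the first enzyme of the glyoxylate cycle proper, rose in both genotypes at 3 h while MLS, the second, did not pass in either. ICL was at 40.8, 30.0 and 27.6 CPM in wild-type DMSO and at 58.8, 43.0 and 52.3 CPM under NAE 18:3 (log2 0.60, SE 0.15, edgeR adjusted p = 0.0039). In agb1 it was at 16.2, 19.1 and 18.6 CPM and then at 28.1, 34.0 and 32 CPM (log2 0.76, SE 0.15, adjusted p = 0.000975). Neither pair overlapped, and the agb1 NAE 18:3 libraries overlapped the wild-type DMSO libraries. MLS was at 7.88, 7.87 and 10.7 CPM and at 7.65, 7.01 and 11.5 CPM in wild type, with the third replicate highest in both treatments. Its agb1 values were 6.23, 5.21 and 6.01 CPM under DMSO and 5.30, 7.11 and 4.75 CPM under NAE 18:3.

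In agb1 at 3 h, 6 of the 10 genes rose (ACX1, ICL, LACS7, KAT2, SDP1 and LACS6) and none fell, against 50.5% of all loci called and 24.5% called higher. The median over the 10 was 0.43 on the log2 scale, against -0.03 over all loci. Calls of ACX1, SDP1, LACS7, KAT2 and ICL held in both genotypes under each of the 20 alternatives run for each of them. The DMSO spread of these beta-oxidation genes was wide at 3 h: the third replicate was the highest of its group for SDP1, LACS7, ACX1 and KAT2 in both genotypes, and the second agb1 replicate was the lowest.

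The 3 h response was not shown to differ between genotypes for any of the 10. edgeR called 0, and DESeq2 also called 0, with 1 of 10 at an unadjusted p under 0.05, against 2.97% of all loci called by edgeR. The gene with that p was ACX1, whose difference (agb1 response minus wild-type response) was -0.59 on the log2 scale (SE 0.22, edgeR adjusted p = 0.171). Without the agb1 DMSO replicate 2 it was -0.70 and was called (adjusted p = 0.0465), and the count over all loci rose with it, from 613 to 1394. SDP1 followed with -0.38 (SE 0.19, adjusted p = 0.297), and 8 of the 10 values were negative, as were 10850 of the 20672 over all loci.

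The NAE 18:3 response of 4 genes was larger at 3 h than at 1 h in wild type. The change of the log2 fold change was 1.47 for ACX1 (SE 0.19, edgeR adjusted p = 1.44e-06), 0.71 for LACS7 (0.20, 0.00586), 0.66 for SDP1 (0.19, 0.00715) and 0.60 for KAT2 (0.17, 0.00544); 48.0% of all 21700 loci were called by the same test and 25.2% were called higher. In agb1 the changes of ACX1 (0.93, SE 0.19, adjusted p = 0.000475) and LACS7 (0.65, SE 0.20, adjusted p = 0.0143) passed, against 34.5% of all loci called and 17.0% called higher. Without the agb1 DMSO 3 h replicate 3 the agb1 count was 5 instead of 2. LACS6 changed least of the 7 genes that rose at 3 h in wild type (0.10, SE 0.10).

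**Figure D3:**
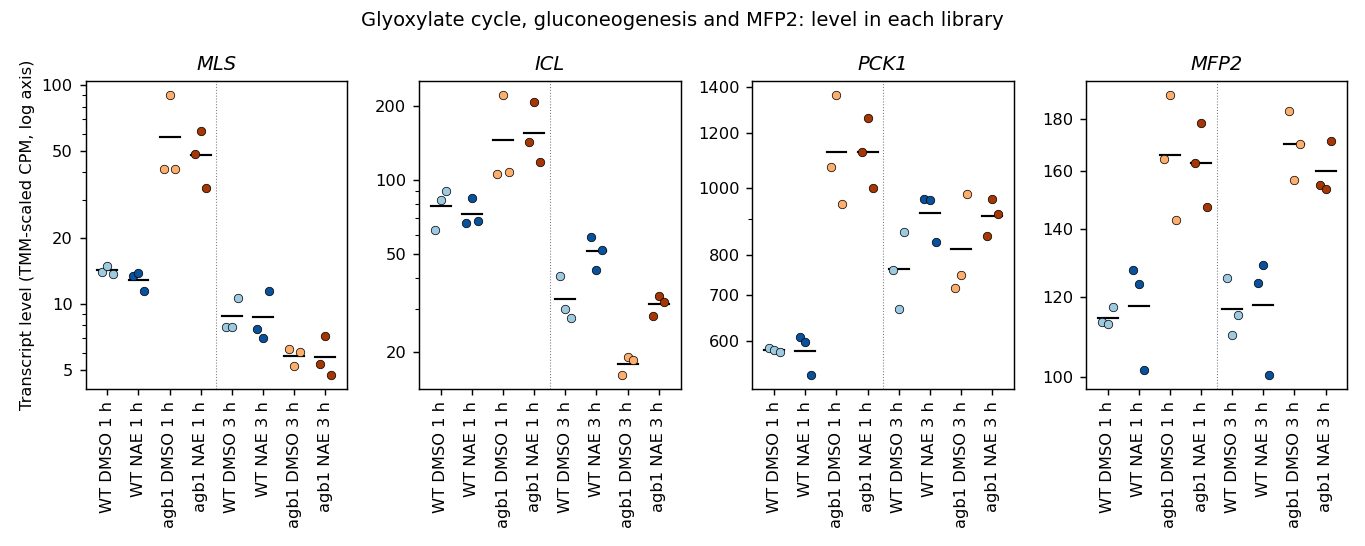
Levels of MLS, ICL, PCK1 and MFP2 in each of the 24 libraries, in CPM on a log axis, by group; each point is a library and each bar a group mean of 3. At 1 h every agb1 library lies above every wild-type library for all 4 genes, and at 3 h the agb1 libraries of ICL lie below the wild-type libraries of the same treatment.

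The greatest genotype differences lay at the other end of the route. Under DMSO at 1 h, 5 of the 10 genes were higher in agb1 and none was lower, against 11.4% of all loci called and 5.63% called higher. That background of 2419 loci depended on single libraries: it was 926 without the wild-type DMSO replicate 1, 851 without the agb1 DMSO replicate 1 and 905 without the agb1 DMSO replicate 2, and 3 of the 10 genes were called in each case. MLS was at 14.0, 15.0 and 13.8 CPM in wild type and at 41.5, 90.4 and 41.7 CPM in agb1. Every agb1 library was thus well above every wild-type one, a 4.03-fold difference (log2 2.01, SE 0.34, edgeR adjusted p = 0.00859). The second agb1 library was the highest, and without it the log2 difference was 1.53 and still called (adjusted p = 0.0016). A fit of only the 6 libraries compared just missed the threshold for MLS (adjusted p = 0.051).

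PCK1 was at 587, 582 and 579 CPM in wild type and at 1073, 1362 and 946 CPM in agb1 under DMSO at 1 h. The wild-type libraries were tight and the agb1 libraries all higher (log2 0.94, SE 0.12, edgeR adjusted p = 0.000448). ICL was at 62.8, 82.7 and 90.7 CPM in wild type and at 106, 221 and 108 CPM in agb1, also without overlap, but it was not called (log2 0.87, SE 0.32, adjusted p = 0.109). The replicate block (0.0404) and the fit of all 24 libraries (0.0491) called it. Groups did not overlap for 32.8% of all loci in this comparison. In these 3 genes the second agb1 replicate was highest under both treatments.

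MFP2 was at 113, 113 and 117 CPM in wild type and at 164, 190.0 and 143 CPM in agb1 under DMSO at 1 h (log2 0.53, SE 0.11, edgeR adjusted p = 0.00891). KAT2 (0.31, SE 0.09, adjusted p = 0.0401) and LACS6 (0.22, SE 0.06, adjusted p = 0.0328) were the other 2 genes called, and both calls were fragile. LACS6 was lost without any 1 of the 6 libraries compared (adjusted p = 0.0503 to 0.124). KAT2 was lost without any wild-type DMSO replicate, agb1 DMSO replicate 1 or 2, wild-type NAE 18:3 replicate 2 or agb1 NAE 18:3 replicate 1 (0.0525 to 0.188). LACS7 (0.31, adjusted p = 0.0539) was called instead without any of 4 other libraries, namely the agb1 DMSO replicate 3, the agb1 NAE 18:3 replicate 3 and the wild-type NAE 18:3 replicates 1 and 3 (0.0257 to 0.0498), and also with upper-quartile scaling, DESeq2, the replicate block and the fit of only the 6 libraries. The fit of all 24 libraries ended both the KAT2 and the LACS6 call, and the fit of only the 6 that of KAT2. A correction for the trend of counts with exon length left 3 of the 5 calls, MLS, PCK1 and MFP2. Libraries of 1 group differed in that trend, with a rank correlation of the library's log ratio with exon length from -0.33 to -0.07 in wild-type DMSO at 1 h and from -0.03 to 0.22 in agb1 DMSO at 1 h.

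Under NAE 18:3 at 1 h 3 of the 10 genes were higher in agb1 (MLS, PCK1 and MFP2), against 8.97% of all loci called and 4.08% called higher. MLS was at 13.5, 13.8 and 11.5 CPM in wild type and at 48.4, 61.7 and 33.8 CPM in agb1 (log2 1.89, SE 0.34, edgeR adjusted p = 0.00987). PCK1 was at 608, 598 and 536 CPM and at 1126, 1260 and 998 CPM (log2 0.96, SE 0.12, adjusted p = 0.00028). ICL was at 66.8, 84.8 and 68.0 CPM and at 143, 207 and 118 CPM, without overlap and uncalled (log2 1.09, SE 0.32, adjusted p = 0.0715). It was called without the agb1 DMSO replicate 2 (0.00925), with DESeq2 (0.0203), with the replicate block (0.0129) and in the fits of all 24 and of only the 6 libraries compared (0.0133 and 0.0174). MFP2 was at 128, 124 and 102 CPM and at 163, 178 and 147 CPM (log2 0.47, SE 0.11, adjusted p = 0.0151), and its call was lost without the agb1 NAE 18:3 replicate 2 or the wild-type NAE 18:3 replicate 3 (0.0689 and 0.0593).

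Of the seed stage and root markers, 1 each differed between genotypes at 1 h, beside 11.4% of all loci called under DMSO and 8.97% under NAE 18:3. Of the 10 seed storage markers 4 passed the filter on low counts at 1 h, and 1 of them, SESA4 (a 2S albumin, named after its values were seen), was higher in agb1 under DMSO (log2 2.80, edgeR adjusted p = 0.00483) and under NAE 18:3 (2.88, adjusted p = 0.00326). The summed level of the 10 markers was 0.471 to 1.37 CPM in wild type and 1.73 to 2.16 CPM in agb1 under DMSO, and 0.798 to 2.71 and 1.90 to 2.94 CPM under NAE 18:3. Between 1 and 5 of the 10 markers were at 0 counts in each wild-type 1 h library and 0 or 1 in each agb1 1 h library. Of the 5 root markers 1, the tonoplast aquaporin gene TIP2;3, was higher in agb1 at 1 h under DMSO (1.69) and NAE 18:3 (1.37). The summed root level was 63.9 to 74.9 CPM in wild type and 74.4 to 89.7 CPM in agb1 under DMSO, which overlap, and 73.3 to 84.9 and 92.8 to 94.9 CPM under NAE 18:3. None of the 5 green tissue markers was called at 1 h (summed level 15110 to 17730 CPM in wild type and 13550 to 16420 CPM in agb1 under DMSO). The part of tissue make-up or seedling stage in the MLS, ICL and PCK1 differences was not tested.

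**Figure D4:**
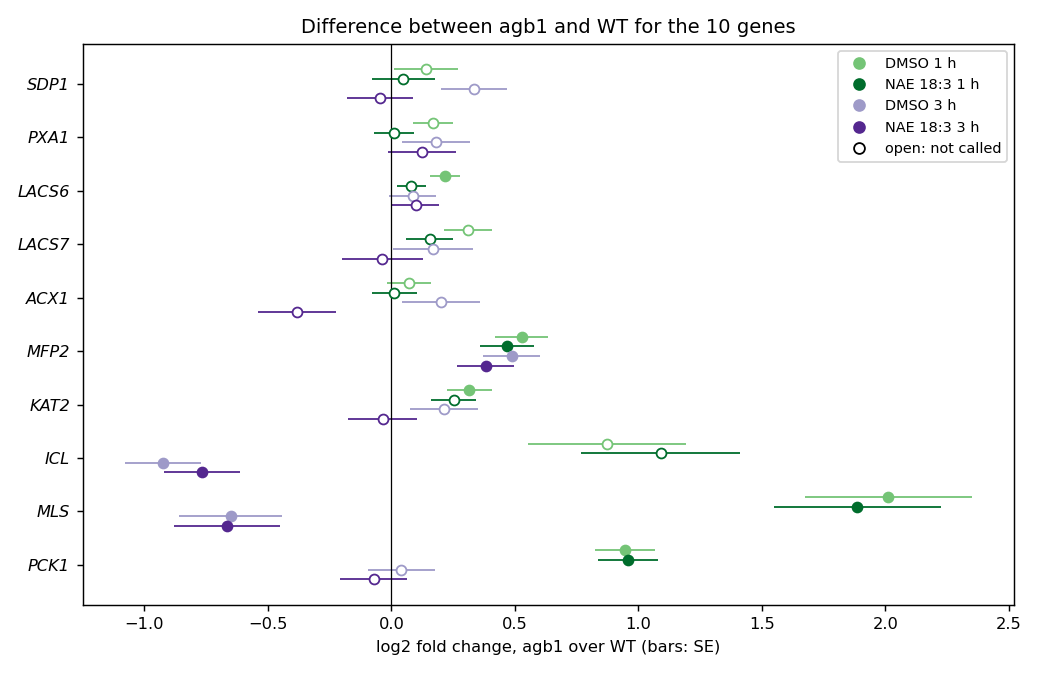
Log2 fold change of agb1 over wild type for the 10 genes under DMSO and NAE 18:3 at 1 h and 3 h, with bars for the standard error; filled points passed an adjusted p of 0.05. MLS and ICL lie to the right of 0 at 1 h and to the left at 3 h, PCK1 lies to the right at 1 h and near 0 at 3 h, and MFP2 lies to the right in all 4 conditions.

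At 3 h the ICL and MLS differences had the opposite sign from those at 1 h, where ICL was not called. Under DMSO 3 of the 10 genes differed, MFP2 higher and ICL and MLS lower in agb1, against 19.0% of all loci called, 7.84% higher and 11.1% lower. ICL was at 40.8, 30.0 and 27.6 CPM in wild type and lower in agb1, at 16.2, 19.1 and 18.6 CPM (log2 -0.92, SE 0.15, edgeR adjusted p = 0.00115). Under NAE 18:3 3 genes were called as well, MFP2 higher and ICL and MLS lower, against 22.9% of all loci called, 9.24% higher and 13.7% lower. There the ICL difference was -0.77 (SE 0.15, adjusted p = 0.00336). The ICL groups did not overlap in either treatment, and its call held in all 20 alternatives.

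The lower MLS level of agb1 at 3 h rested on 110 to 282 counts per library, and its calls depended on single libraries. The log2 difference was -0.65 under DMSO (SE 0.21, edgeR adjusted p = 0.044) and -0.67 under NAE 18:3 (SE 0.21, adjusted p = 0.0383), where the groups overlapped. Leaving out any 1 of 8 libraries ended either call. Under DMSO these were all 6 libraries compared and replicate 1 of both NAE 18:3 groups (adjusted p = 0.0527 to 0.167). Under NAE 18:3 they were replicates 1 and 3 of both NAE 18:3 groups, replicates 1 and 2 of wild-type DMSO and replicates 1 and 3 of agb1 DMSO (0.0501 to 0.165). The replicate block, upper-quartile scaling and the fit of all 24 libraries ended both calls too, and the fit of only the 6 libraries ended that under NAE 18:3.

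MFP2 was higher in agb1 in all 4 conditions. At 3 h it was at 125, 109.9 and 115 CPM in wild type and 183.2, 157 and 169.8 CPM in agb1 under DMSO (log2 0.49, SE 0.12, edgeR adjusted p = 0.0102). Under NAE 18:3 it was at 124, 129 and 100.5 CPM and at 155, 154 and 171 CPM (log2 0.38, SE 0.12, adjusted p = 0.0294). The groups did not overlap, but the DMSO call was lost without the wild-type DMSO replicate 2 (0.0583) and the NAE 18:3 call without the wild-type NAE 18:3 replicate 3 or any agb1 NAE 18:3 replicate (0.0611 to 0.104). PCK1 had values of 0.04 and -0.07 at 3 h (SE 0.14 each). SDP1 under DMSO (0.33, adjusted p = 0.0995) was called only without the agb1 DMSO replicate 2 (0.44, adjusted p = 0.0301). The other genes lay between -0.38 and 0.21 and none was called. The lowest, ACX1 under NAE 18:3, was called in the fits of all 24 and of only the 6 libraries (adjusted p = 0.0327 and 0.0114).

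The change of the genotype difference with time was tested after the levels had been seen. Under DMSO it passed for 3 of the 10 genes, all lower at 3 h, against 16.3% of all loci called and 7.82% called lower: MLS with -2.65 on the log2 scale (SE 0.38, edgeR adjusted p = 9.41e-05), ICL with -1.78 (SE 0.35, adjusted p = 0.00191) and PCK1 with -0.89 (SE 0.18, adjusted p = 0.00239). Under NAE 18:3 the same 3 passed, against 19.3% of all loci and 10.3% lower, with -2.56, -1.85 and -1.03 (adjusted p = 0.000122, 0.000944 and 0.000479). The count stayed at 3 whichever library was left out. The other 7 genes had changes between -0.39 and 0.21 in the 2 treatments, and none passed.

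Read as levels, agb1 MLS stood 9.94 times higher at 1 h than at 3 h under DMSO and 8.38 times under NAE 18:3, against 1.62 and 1.48 times in wild type. For ICL the ratios of 1 h to 3 h were 8.06 and 4.97 in agb1 and 2.40 and 1.42 in wild type. PCK1 was 1.38 and 1.24 times higher at 1 h in agb1, while in wild type its 3 h level was 1.31 and 1.58 times its 1 h level. The 1 h and 3 h libraries are in separate tables, so time and any difference between the sets of libraries cannot be told apart. Ranked by group mean, ICL ran from agb1 DMSO 3 h (18.0 ± 1.54 CPM, SD, n = 3) over agb1 NAE 18:3 3 h (31.4 ± 3.00), wild-type DMSO 3 h (32.8 ± 7.04), wild-type NAE 18:3 3 h (51.4 ± 7.93), wild-type NAE 18:3 1 h (73.2 ± 10.05) and wild-type DMSO 1 h (78.7 ± 14.4) to agb1 DMSO 1 h (145 ± 66.2) and agb1 NAE 18:3 1 h (156 ± 45.6). Only 3 pairs of neighbours in that order overlapped in their libraries: the second with the third, the fifth with the sixth, and the last pair. The group means of MLS fell into 4 tiers, with agb1 at 3 h lowest (5.72 ± 1.24 and 5.82 ± 0.541 CPM), then wild type at 3 h (8.72 ± 2.43 and 8.81 ± 1.63), wild type at 1 h (12.9 ± 1.28 and 14.3 ± 0.631) and agb1 at 1 h (48.0 ± 14.0 and 57.9 ± 28.2), and within each tier the treatments overlapped. Single libraries crossed 2 of the 3 borders between tiers: the highest agb1 NAE 18:3 library at 3 h (7.11 CPM) lay above the lowest wild-type NAE 18:3 library at 3 h (7.01), and the highest of the latter (11.49 CPM) just above the lowest wild-type NAE 18:3 library at 1 h (11.46).

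Green tissue markers moved with genotype at 3 h. All 5 were lower in agb1 under DMSO (log2 -1.15 to -0.71), with summed levels of 17530 to 22290 CPM in wild type and 10740 to 12370 CPM in agb1. Under NAE 18:3, 2 of 5 were lower (18080 to 21970 against 12700 to 14170 CPM). Over all loci 11.1% and 13.7% were called lower. The NAE 18:3 response at 3 h differed between genotypes for 2 of the 5, beside 2.97% of all loci called. The difference (agb1 response minus wild-type response) was 1.44 for LHCB2.1 (edgeR adjusted p = 0.00387) and 0.85 for LHCB3 (edgeR adjusted p = 0.0286). LHCB2.1 fell in both genotypes, by less in agb1 (log2 -0.67) than in wild type (-2.11). LHCB3 was named after its values were seen. The root sum was 92.7 to 108 CPM in wild type and 72.7 to 108 CPM in agb1 under DMSO, and 51.3 to 77.2 and 53.1 to 58.2 CPM under NAE 18:3. The seed storage markers summed to 1.13 to 2.54 CPM in all 3 h libraries, and none of the 3 that passed the filter was called between genotypes. Their part in the ICL and MLS differences was not tested.

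**Figure D5:**
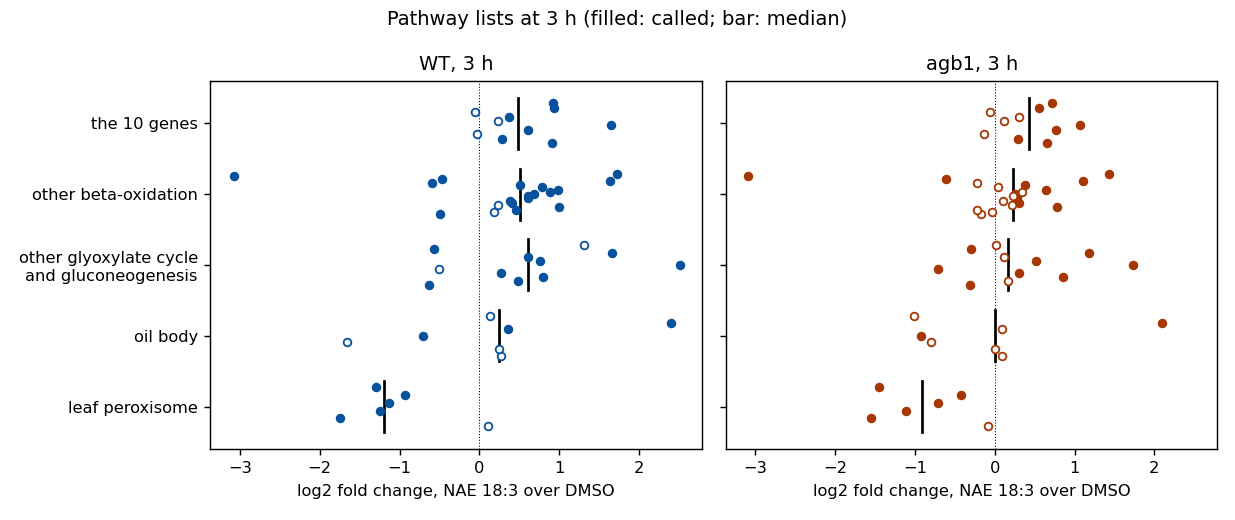
Log2 fold change of NAE 18:3 over DMSO at 3 h in wild type and agb1 for every tested gene of the 10 and of 4 further lists; filled points passed an adjusted p of 0.05 and bars mark list medians. The median lies to the right of 0 for the 10 genes and the further beta-oxidation genes, and to the left for the leaf peroxisome genes, at -1.19 in wild type.

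The other genes of the pathway gave a mixed picture around the 10. Of 19 further beta-oxidation genes, all tested, 13 rose and 4 fell in wild type at 3 h (median 0.51) and 8 rose and 2 fell in agb1 (median 0.23), beside 29.4% and 24.5% of all loci called higher. PNC2, which supplies ATP to the peroxisome, rose by a log2 of 1.64 in wild type and 1.11 in agb1 (SE 0.16 each, edgeR adjusted p = 1.43e-06 and 5.57e-05). KAT5, another thiolase gene, went the other way from KAT2. It fell at 1 h in wild type (-0.70, SE 0.13, adjusted p = 0.00156) and agb1 (-0.62, SE 0.13, adjusted p = 0.00471), and at 3 h (-3.07 and -3.09, SE 0.17 and 0.16). Its adjusted p at 3 h was 5.64e-09 in wild type and 6.89e-09 in agb1. ACX4, a short-chain oxidase gene, rose at 1 h in wild type (0.30, adjusted p = 0.016). At 1 h the list counts were 1 up and 1 down in wild type and 0 up and 1 down in agb1, beside 20.5% and 13.8% of all loci called. The NAE 18:3 response differed between genotypes at 3 h for 2 of the 19, both lower in agb1, beside 2.97% of all loci called, and for 0 at 1 h. They were ECI1 (-0.69, edgeR adjusted p = 0.0318) and IBR10 (-0.75, edgeR adjusted p = 0.0318), named after their values were seen. The median of this difference at 3 h was -0.29 over the 19 and -0.02 over all loci, and 17 of the 19 values were negative.

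Of 11 further glyoxylate cycle and gluconeogenesis genes, 7 rose and 2 fell in wild type at 3 h (median 0.61) and 5 rose and 3 fell in agb1 (median 0.16). Over all loci 58.5% and 50.5% were called, 29.4% and 24.5% as higher. PPDK, which makes phosphoenolpyruvate from pyruvate and so offers another entry to gluconeogenesis beside PCK1, rose by a log2 of 2.51 in wild type (SE 0.20, edgeR adjusted p = 1.85e-07) and 1.73 in agb1 (SE 0.19, adjusted p = 6.73e-06). SFC1, the mitochondrial succinate and fumarate carrier, rose by 1.67 and 1.19 (SE 0.15 each, adjusted p = 6.04e-07 and 1.41e-05). In wild type at 1 h 5 of the 11 rose, among them the aconitase gene ACO1 (0.27, adjusted p = 0.0203), beside 12.4% of all loci called higher; none of the 11 was called in agb1 at 1 h, beside 13.8% of all loci. In agb1 against wild type under DMSO at 1 h, 5 of the 11 were higher and none lower, and under NAE 18:3 1 was higher, beside 5.63% and 4.08% of all loci called higher. At 3 h under DMSO 2 of the 11 were higher and 2 lower, beside 7.84% and 11.1% of all loci. At 3 h under NAE 18:3 none was higher and 2 were lower, beside 9.24% and 13.7%. The difference of the NAE 18:3 response between genotypes was called for none of the 11 at either time, and for none of the tested oil body, leaf peroxisome, seed storage or root genes.

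Of 12 oil body genes, 7 passed the filter on low counts at each time. CGI58, a regulator known to act with PXA1, rose in all 4 NAE 18:3 comparisons. At 1 h it rose by a log2 of 1.02 in wild type and 0.97 in agb1 (SE 0.08 each, edgeR adjusted p = 3.08e-07 and 7.46e-07). At 3 h it rose by 2.41 and 2.1 (SE 0.22 and 0.21, edgeR adjusted p = 7.04e-07 and 3.3e-06). SDP1L, the close relative of SDP1, fell at 3 h (log2 -0.71 in wild type and -0.92 in agb1, adjusted p = 0.00157 and 0.000196) while SDP1 rose. In all, 2 of the 7 rose and 1 fell in wild type at 3 h, beside 58.5% of all loci called, and 1 rose and 1 fell in agb1, beside 50.5%.

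The 6 genes of leaf peroxisomes, which share the organelle but serve photorespiration, moved the other way. At 3 h 5 of 6 fell in each genotype, with medians of -1.19 in wild type and -0.91 in agb1, beside 58.5% and 50.5% of all loci called in either direction. HPR1, the hydroxypyruvate reductase gene, fell (log2 -1.74 in wild type and -1.56 in agb1, SE 0.13 each, edgeR adjusted p = 1.25e-07 and 4.87e-07). The glycolate oxidase gene GOX2 fell in both genotypes (-1.13 in wild type and -0.71 in agb1, adjusted p = 4.12e-06 and 0.000322), as did the aminotransferase gene AGT1 (-1.25 and -1.11, adjusted p = 6.65e-06 and 2.76e-05). Some green tissue markers fell too (4 of 5 in wild type and 2 of 5 in agb1), including LHCB2.1 (-2.11 and -0.67) and RBCS1B (-1.50 and -1.48). None was called higher, and the highest value was 0.14 in wild type and 0.31 in agb1. The summed level of the 5 markers did not fall. In wild type it was 17530 to 22290 CPM under DMSO and 18080 to 21970 CPM after treatment. In agb1 it was 10740 to 12370 CPM and then 12700 to 14170 CPM, without overlap. Of the 5 root markers 2 rose and 1 fell in wild type at 3 h, and 1 rose and 2 fell in agb1. TIP2;3 rose (2.38 and 2.51) and SCR fell (-1.05 and -1.09) in both, EXP7 rose in wild type (1.80, edgeR adjusted p = 0.0112), and RHD6 fell in agb1 (-1.78, edgeR adjusted p = 0.0426). RHD6 was named after its values were seen. At 1 h TIP2;3 rose in both genotypes (1.06 and 0.74), PIN2 in wild type (0.50) and EXP7 in agb1 (0.86). Their part in the rise of the beta-oxidation genes was not tested.

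Transcripts whose pattern lay closest to each of the 10 were found by the root mean square difference of log2 CPM over the 24 libraries, after centring on each time point, among 15521 loci of sufficient level. AT4G22820 was among the closest 2 for SDP1 (0.09), LACS7 (0.10) and KAT2 (0.10). The other closest were AT1G33050 for SDP1 (0.09), the peroxisomal citrate synthase gene CSY2 for LACS7 (0.10), and PIF7 for KAT2 (0.09). ACX1 was nearest to AT4G30240 (0.11) and NodGS (0.12). The smallest difference was larger for MLS (AT1G69730, 0.54), ICL (AT1G03495, 0.32) and PCK1 (AT5G11700, 0.20). The own root mean square deviations of MLS, ICL and PCK1 were 0.75, 0.57 and 0.37. Those of SDP1, LACS7, KAT2 and ACX1 were 0.35, 0.37, 0.36 and 0.53. AT2G01610 was the second closest to both MLS and ICL (0.55 and 0.34). PXA1 (AT4G02480, 0.08), LACS6 (AT1G20760, 0.07) and MFP2 (AT1G63420, 0.14) varied little themselves, with deviations of 0.20, 0.16 and 0.27.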

How the data were processed

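Poly(A) RNA of 24 whole-seedling samples was sequenced with a stranded kit as paired reads of 75 bases, per the labels' protocols. The authors deposited raw counts per locus in 1 table per time point. STAR, DESeq2 and TAIR10 are named in the submitters' processing notes, and the counting tool and its strand setting are not given in the sources used here. Normalized tables were not used here. The 12 libraries of a time point were fitted together with edgeR 4.0.16 in R 4.3.3 (trimmed-mean scaling, filterByExpr by group with a minimum count of 10 and total of 15, robust quasi-likelihood F test), and all 24 libraries for changes with time. P-values were adjusted over all 21255, 20672 or 21700 loci by the Benjamini-Hochberg method and called under 0.05. A standard error is the log2 fold change divided by the square root of F. The fit was also run on simulated counts with known changes. For the treatment response difference between genotypes, 28.4% of 1.5-fold, 71.6% of 2-fold and 89.4% of 4-fold changes were recovered at 1 h. At 3 h the recovered shares were 7.46%, 41.8% and 87.9%. Smaller differences of that response between genotypes could thus have gone uncalled, above all at 3 h. Exon lengths, names and promoters came from RefSeq's TAIR10.1, which holds 32548 of the 32833 loci. Depth per library ranged from 18001981 to 61937044 counts.

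The 10 genes and the 7 further lists were chosen with earlier results of these data known. All 10 are named in every comparison; from each further list the 2 called genes with the smallest p in each NAE 18:3 effect were named if their mean was at least 1 CPM, and for likeness the 2 closest loci of at least 5 CPM. A list gene that this rule names is not reported here. The 2 tests of how the genotype difference changed with time and the exon length correction were added after the data were seen. Alternatives were 2 other scalings, no filter, DESeq2 1.42.0, a replicate block, fits of 24 or 6 libraries and leaving out each library.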

Additional observations from a re-analysis of the deposited data

Results flagged for a closer look

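The listed results are differences of an effect between time points that passed the test of that difference (edgeR, log2 scale). The NAE 18:3 response was larger at 3 h than at 1 h for ACX1, by 1.47 in wild type and 0.93 in agb1, and for LACS7, by 0.71 in wild type and 0.65 in agb1. In wild type it was also larger for SDP1, by 0.66, and for KAT2, by 0.60. ACX1 in wild type was higher under NAE 18:3 in all 3 libraries at 3 h, whereas its 1 h groups overlapped.

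The difference between agb1 and wild type was lower at 3 h than at 1 h for 3 genes under both treatments, in tests added after the levels were seen. For MLS the change was -2.65 under DMSO and -2.56 under NAE 18:3, for ICL -1.78 and -1.85, and for PCK1 -0.89 and -1.03. MLS was higher in agb1 at 1 h and lower at 3 h, ICL was not called at 1 h and was lower at 3 h, and PCK1 was higher at 1 h and not called at 3 h.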

How the results depend on the processing

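No direction of a called value was reversed by any alternative. For NAE 18:3 in wild type at 1 h the number of the 10 genes called was 2, and 1 under upper-quartile scaling and 0 in the fit of all 24 libraries. Over all loci these settings gave 4770 and 2774, against 4348. For NAE 18:3 in agb1 at 1 h the number of the 10 was 0, and 1 (KAT2) with DESeq2, the replicate block and the exon length correction. Over all loci these gave 3272, 2839 and 3035, against 2935. The exon length correction also gave 3 instead of 5 genes for agb1 against wild type under DMSO at 1 h (2066 instead of 2419 over all loci). For the change of the NAE 18:3 response it gave 7 instead of 4 in wild type (10380 instead of 10422) and 5 instead of 2 in agb1 (7757 instead of 7489). The cause was not tested. With 1 library left out at a time, the counts at 1 h ran from 0 to 4 (NAE 18:3 in wild type), 0 to 1 (in agb1), 3 to 6 (genotype under DMSO) and 2 to 4 (genotype under NAE 18:3). At 3 h they ran from 5 to 7 for NAE 18:3 in either genotype, from 0 to 1 for the difference between genotypes and from 1 to 3 for genotype under either treatment. For the change of the NAE 18:3 response they ran from 4 to 5 in wild type and from 2 to 5 in agb1.

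Whether libraries of the same replicate number belong together was not tested. The deviations of same-numbered libraries correlated at -0.18 to 0.16 at 1 h and -0.13 to 0.25 at 3 h. The correlation was over 0.1 for 3 of 18 pairs at each time. Its median was 0.03 at 1 h and -0.04 at 3 h, against 0.03 and 0.01 for libraries of different numbers. At 1 h 7 of 12 libraries correlated best with one of their own number, and at 3 h 5 of 12. With the replicate block, counts were 2 (NAE 18:3 in wild type at 1 h), 7 and 4 (genotype at 1 h under DMSO and NAE 18:3, both with ICL), 6 and 6 (NAE 18:3 at 3 h, in wild type without PXA1), 2 and 2 (genotype at 3 h), and 0 for both differences between genotypes.

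Upper-quartile scaling shifted the median of all loci by -0.15 for NAE 18:3 in wild type at 3 h and by -0.12 for its change with time. Over all loci, the difference of the NAE 18:3 response between genotypes was called for 16 at 1 h (82 with DESeq2, 2 in the fit of all 24 libraries) and 613 at 3 h (1394 and 2222). The fit of all 24 libraries also moved the counts from 4348 to 2774 and from 2935 to 1845 (NAE 18:3 at 1 h in wild type and agb1), from 2419 to 894 and from 1907 to 743 (genotype at 1 h), and from 3921 to 6297 and from 4743 to 7172 (genotype at 3 h, where the fit of 6 libraries gave 2466 under DMSO). With 1 library left out, the count over all loci ran from 1 to 32 and from 189 to 1394 for the difference of the NAE 18:3 response between genotypes (1 h and 3 h), from 2684 to 4600 for NAE 18:3 in wild type at 1 h, from 851 to 2734 and from 1071 to 2039 for genotype at 1 h (DMSO and NAE 18:3), and from 2503 to 4374 and from 2812 to 5280 for genotype at 3 h. It stayed within 1.5 times for the other comparisons. MLS had the fewest counts of the 10, from 110 in a library, and its relative counting error is the largest.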
